A study of Mus musculus with 6 samples.

Results

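The acyl-CoA thioesterase genes were followed in the calf muscle of aged mice, namely Acot1, Acot2, Acot7, Acot8, Acot9, Acot11 and Acot13. They were taken by name, by a rule that used none of their values, but earlier results of these data were known at that point. They make up 7 of the 26294 genes of the deposited table. All 7 had a mean of at least 1 scaled read over the libraries, the filter that 20311 genes of the table passed. Acyl-CoA thioesterases split acyl-CoA into free fatty acid and coenzyme A, so they work against the synthetases that activate fatty acids and set free the CoA that beta-oxidation also needs. Type I enzymes, which include Acot1 and Acot2, have an alpha/beta hydrolase fold and sit in a gene cluster, whereas type II enzymes, from Acot7 to Acot13, carry a hotdog fold and are spread over the genome. In heart and skeletal muscle Acot1 and Acot2 are known targets of PPAR alpha, the lipid-sensing nuclear receptor.

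Calf muscle was collected from male C57BL/6 mice aged 24 to 26 months. HF.NOB mice received a high-fat diet with 0.1% Nobiletin (NOB), a citrus flavonoid that activates the ROR nuclear receptors of the clock, HF mice received the high-fat diet alone, and RD mice received a regular diet without NOB. The growth protocol names 5 to 6 months of high-fat feeding in the same words for every sample, RD included, and here the diet label of each sample was followed. Muscle was taken at Zeitgeber time 18 (ZT18), in the dark, active phase, and at ZT6, in the light, resting phase, and each of the 6 combinations of diet and time has 1 RNA library. With 1 library per combination no single comparison has a replicate. The legend of an RNA sequencing heat map in the study states replicates that neither the labels nor the table separate, and whether a library pools mice is not known here. The NOB groups were compared with HF and RD only, since no library came from RD mice given NOB.

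Libraries held 23248663 to 31837501 reads counted in genes, and 1 read was worth 0.956 to 1.33 units on the deposited scale, called scaled reads here. Of the 10 muscle fibre markers 0 were at 0 in any library. The HF.NOB library at ZT6 stood apart: across 10006 protein-coding genes its ratio to the HF library at ZT6 followed transcript length (Spearman rho = -0.78, a description across genes), while the ratios that did not involve it had a rho between -0.00087 and 0.10. The HF library at ZT18 held liver transcripts, the 12 liver markers summing to 2194 scaled reads there and to 94.8 to 319 in the other 5, where 6 to 8 of the 12 were at 0 and Cyp2e1 made up most of the sum. Alb had 885 scaled reads in the HF library at ZT18 and 1.33 to 9.34 in the other 5. Each value below that rests on either library is read with this in view.

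Acot2, the mitochondrial matrix thioesterase for long-chain acyl-CoA, lies at chr12:83987861-83993873 (GRCm38, plus strand, ENSMUSG00000021226), and Acot1, its cytosolic counterpart, at chr12:84009490-84018371 (plus strand, ENSMUSG00000072949). Their coding sequences were identical at 95.6% of 1236 aligned bases. The stretch below comes from near the end of each coding sequence in the GRCm38 reference. It is the last run of 90 aligned bases without a gap and is shown as an example of how alike the genes are. Capitals mark the 8 of 90 bases that differ.
Acot1, chr12:84017266-84017355: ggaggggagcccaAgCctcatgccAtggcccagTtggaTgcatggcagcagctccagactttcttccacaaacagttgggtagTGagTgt
Acot2, chr12:83992988-83993077: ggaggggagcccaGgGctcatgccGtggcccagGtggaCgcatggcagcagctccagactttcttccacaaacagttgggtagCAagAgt
Of the 50-base windows along the reference transcripts, 23.7% of those of Acot1 also occurred in Acot2 and 24.5% of those of Acot2 also occurred in Acot1. Another 66.4% of the Acot1 windows and 72.3% of the Acot2 windows occurred in no other gene. How reads that fit both genes were assigned is not given in the sources used here, so their separate values are uncertain to that extent, and the sum over the whole cluster is given beside them.

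The bases just upstream of both genes are shown because Acot1 and Acot2 were the members with the highest HF over RD ratios. They are from RefSeq on GRCm38.p6, plus strand, and stop before the first base that GENCODE annotates as transcribed, which for Acot1 lies upstream of the RefSeq start. Capitals mark the CCAAT pentamer on either strand, a motif looked for only after these sequences had been read.
Acot2, chr12:83987611-83987860: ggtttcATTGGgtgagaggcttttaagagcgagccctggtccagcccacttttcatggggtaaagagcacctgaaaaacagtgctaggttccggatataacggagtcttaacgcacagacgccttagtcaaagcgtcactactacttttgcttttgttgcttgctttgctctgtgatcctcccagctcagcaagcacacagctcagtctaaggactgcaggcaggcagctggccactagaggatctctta
Acot1, chr12:84009252-84009489: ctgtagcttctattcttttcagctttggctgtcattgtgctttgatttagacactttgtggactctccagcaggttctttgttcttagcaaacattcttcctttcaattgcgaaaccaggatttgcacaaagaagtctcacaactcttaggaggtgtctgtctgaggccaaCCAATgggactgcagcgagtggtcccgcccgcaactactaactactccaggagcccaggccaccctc
Acot1 held CCAAT 79 to 75 bases before its RefSeq start, and Acot2 held its reverse complement ATTGG 244 to 240 bases before its own. CCAAT on either strand occurred in 37.4% of the 32851 mouse promoter windows of the same table, each running from 250 bases before to 50 after a start. Neither window held the nuclear receptor site AGGTCA (16.3% of all windows), the PPAR element, a direct repeat of that site spaced by 1 base (0.0396%), the same repeat with 1 free position in each copy (0.381%), the RORE TAGGTCA (2.61%, each of which also holds the AGGTCA site), the E-box CACGTG (7.15%) or the D-box TTATGTAA (0.938%). All were searched on both strands.

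Per kilobase of the longest coding transcript, Acot13 was the most abundant member, with a mean of 2227 scaled reads per kb over the 6 libraries (range 1802 to 3252). Acot13 is also called Them2 and binds phosphatidylcholine transfer protein. It was followed by the mitochondrial Acot9 (370, range 325 to 508), Acot2 (361, range 164 to 489) and the cytosolic Acot7 (328, range 291 to 437), whose ranges overlapped one another. The peroxisomal Acot8 came next (142, range 132 to 151), then Acot11, which is also called Them1 and is best known from brown fat (91.2, range 56.0 to 123). Acot1 was the lowest (35.5, range 9.40 to 62.2), and its range reached that of Acot11. Acot8 shares 246 bases of exon with Snx21 on the opposite strand, a gene with a mean of 780 scaled reads, and without stated strand information its reads cannot be told from those of Snx21 in that stretch. The coding sequences of Acot9 and Acot10 were identical at 97.2% of 1317 aligned bases. Of the 50-base windows of Acot9, 20.2% also occurred in Acot10. The separate values of Acot9 and Acot10 are therefore uncertain in the same way as those of Acot1 and Acot2.

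**Figure D1:**
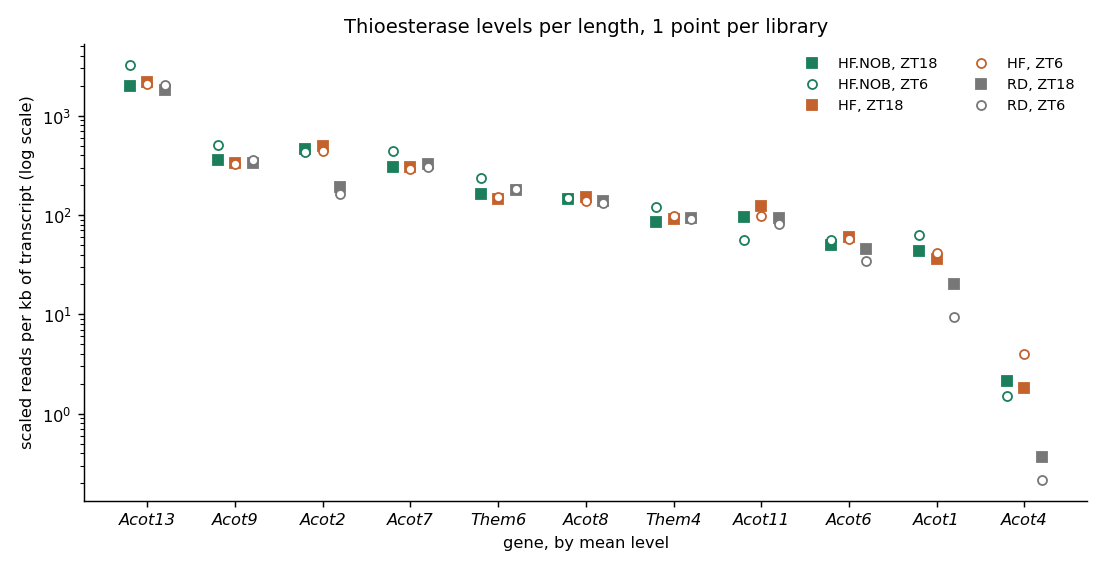
Levels of the 7 members and of the related Acot4, Acot6, Them4 and Them6 in scaled reads per kb of longest coding transcript (log axis), with genes on the horizontal axis by mean level, 1 point per library, colour for diet, filled squares for ZT18 and open circles for ZT6. Acot13 lies above every other gene in all 6 libraries. The 2 RD points of Acot1, Acot2, Acot4 and Acot6 lie below the HF.NOB and HF points of the same gene. Those of Acot4 rest on 2 reads at ZT18 and 1 at ZT6.

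The first question was what the high-fat diet did to the family. Acot2 had 1074 and 962 scaled reads in the HF libraries at ZT18 and ZT6, against 420 and 360 in the RD libraries at the same times. Both HF libraries were above both RD libraries, and the ratio was nearly the same at both times, 2.55-fold at ZT18 (log2 1.35, 95% counting interval 1.18 to 1.53) and 2.67-fold at ZT6 (log2 1.41, 1.22 to 1.62). Acot1 had 81.1 and 94.8 scaled reads in the HF libraries at ZT18 and ZT6, against 46.4 and 21.4 in the RD libraries. Acot1 was therefore also higher in HF at both times, by 1.73-fold at ZT18 (log2 0.79, 0.23 to 1.40) and by 4.29-fold at ZT6 (log2 2.10, 1.38 to 3.01), but the RD values rest on 41 and 16 reads and their intervals are wide. All folds here and below are between values to which 1 was added, and intervals cover counting error only, not the spread between mice.

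At a threshold of 1.5-fold, 2 of the 7 members (Acot1 and Acot2) were higher in HF at ZT18 and the same 2 at ZT6, while 0 were lower at either time. Among all 20311 genes 15.7% passed the same threshold upward and 11.9% downward at ZT18, and 12.3% and 11.6% at ZT6. The median log2 ratio of the members was 0.28 at ZT18 and 0.05 at ZT6, beside -0.0032 and -0.0036 over all genes. In bulk muscle, more RNA per cell and more cells of a type that carries the transcript cannot be told apart.

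The other 5 members stayed within 1.5-fold of RD. Acot11 had 702 and 550 scaled reads in HF at ZT18 and ZT6, against 533 and 462 in RD, 1.32-fold (log2 0.40, 0.22 to 0.57) and 1.19-fold (log2 0.25, 0.06 to 0.45) higher. Acot13 had 1579 and 1511 scaled reads in HF, against 1299 and 1471 in RD, with a counting interval that left out 0 at ZT18 (log2 0.28, 0.17 to 0.40) but not at ZT6 (log2 0.04, -0.07 to 0.15). Acot7, a cytosolic enzyme abundant in brain that prefers arachidonoyl-CoA, had 458 and 438 scaled reads in HF and 487 and 459 in RD. Acot8, which hydrolyses acyl-CoA inside peroxisomes, had 174 and 158 scaled reads in HF and 161 and 152 in RD. Acot9 had 583 and 570 scaled reads in HF and 579 and 634 in RD. For Acot7, Acot8 and Acot9 the counting intervals of the HF over RD ratio included 0 at both times.

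**Figure D2:**
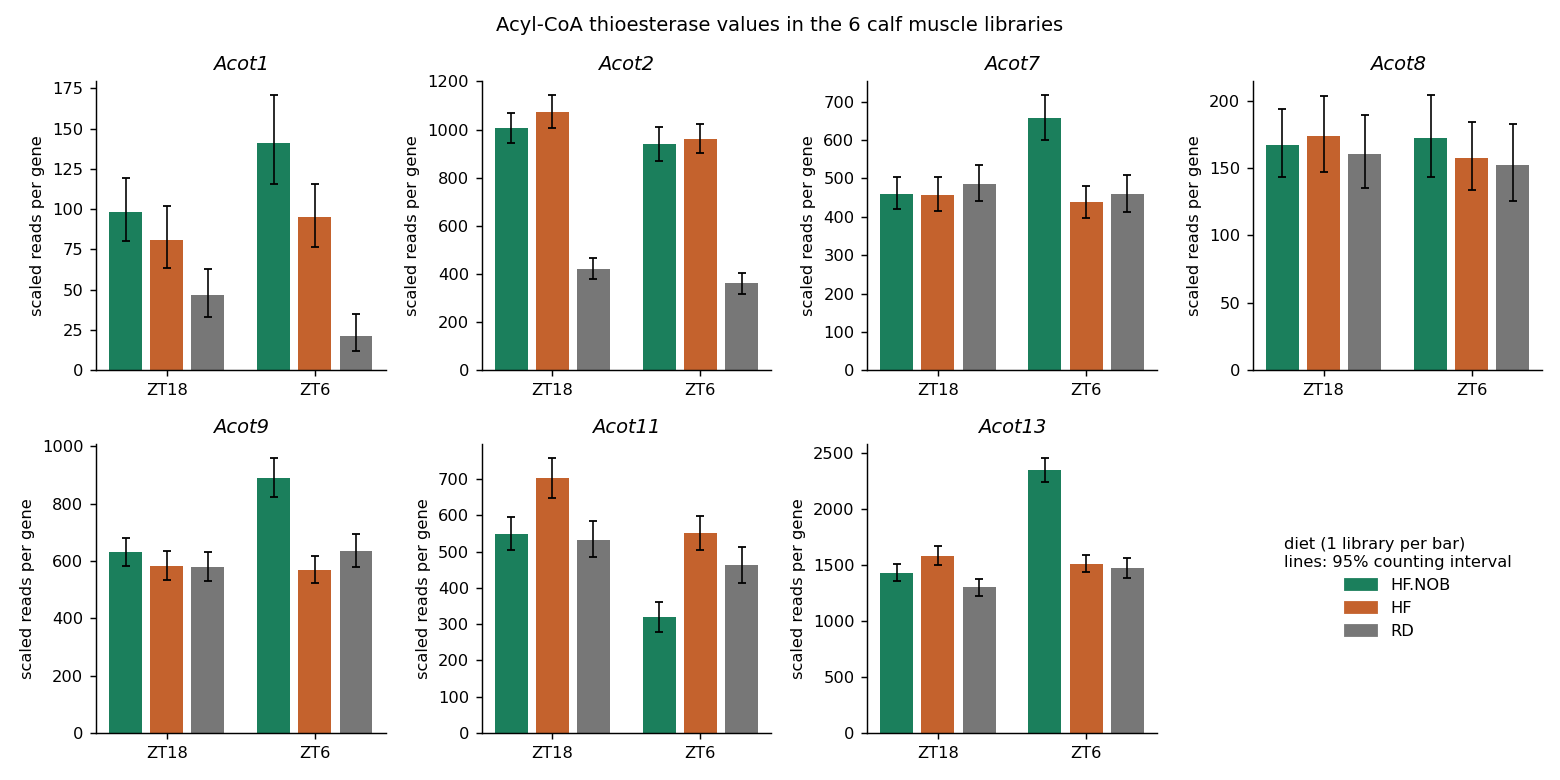
Scaled reads of each member (vertical axes from 0, a scale of its own per gene) at ZT18 and ZT6, with bars for HF.NOB, HF and RD from left to right within each time, 1 library per bar and lines for the 95% exact Poisson interval of its reads. The Acot2 bars of RD (420 and 360) are well below those of HF.NOB and HF (939 to 1074), and the HF.NOB bar at ZT6 is the highest of 6 for Acot1, Acot7, Acot9 and Acot13 and the lowest for Acot11.

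A count model was fitted to the 4 HF and RD libraries, with the other time point standing in as the second library of a diet, which leaves 1 residual degree of freedom per gene. In this fit with edgeR's quasi-likelihood test, 3 of the 7 members were higher in HF at an adjusted p below 0.05 and 0 were lower, against 5.05% higher and 4.14% lower of 14587 genes. Acot2 was higher by 1.39 on the log2 scale (SE 0.088, adjusted p = 3.4e-08), Acot1 by 1.38 (SE 0.29, adjusted p = 0.0057) and Acot11 by 0.34 (SE 0.093, adjusted p = 0.030). These calls depend on the model. When all 6 libraries entered the fit, 0 of 14597 genes were called by edgeR (616 had an unadjusted p below 0.05), and the adjusted p was 0.38 for Acot2 and 0.998 for Acot1 with ratios close to these (log2 1.39 and 1.36). DESeq2 on the 4 libraries called Acot2 (adjusted p = 1.3e-11) but neither Acot1 (0.21) nor Acot11 (0.79). A further fit took 5 libraries, those of HF.NOB included, without the HF library at ZT18, the one with liver transcripts. It left HF with 1 library, so it cannot show whether the calls rest on the library left out. Its log2 ratios were 1.40 for Acot2 and 1.58 for Acot1. Over 8 fits by edgeR or DESeq2, Acot2 was called in 5, Acot1 in 4 and Acot11 in 4. Their adjusted p ran from 3.2e-40 to 0.38, 5.3e-07 to 0.998 and 0.017 to 1.0. In every fit with a call, the diet ratio rested on the same 4 HF and RD libraries. The fit without HF.NOB at ZT6 adds only a lone HF.NOB library to these, and it nearly repeats the 4-library fit. The calls are therefore not separate observations.

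Other transcripts differed between the same libraries. The 7 white adipocyte markers summed to 8017 and 6425 scaled reads in HF at ZT18 and ZT6, against 3966 and 4660 in RD, and the 7 red cell and neutrophil markers to 2110 and 1595 in HF, against 4522 and 5518 in RD. None of these markers was at 0 in any library, and their part in the Acot1 and Acot2 ratios was not tested. The liver transcript Alb had 785 and 2 reads in HF at ZT18 and ZT6, against 4 and 1 in RD, and its part in the ratios was not tested either.

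The next question was whether NOB changed the family in mice on the high-fat diet. Acot2 was nearly level: the HF.NOB libraries had 1005 and 939 scaled reads at ZT18 and ZT6, against 1074 and 962 in HF, and the log2 ratios were -0.10 (-0.22 to 0.03) and -0.04 (-0.18 to 0.11). Acot1 had 98.5 and 141 scaled reads in HF.NOB, against 81.1 and 94.8 in HF, with a counting interval that included 0 at ZT18 (log2 0.28, -0.17 to 0.73) and left it out at ZT6 (log2 0.57, 0.16 to 0.99). The summed value of Acot1 to Acot6 was 1301 and 1294 scaled reads in HF.NOB and 1383 and 1290 in HF. This sum does not depend on how reads are split within the cluster, provided that each read was counted once, which is not known.

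At ZT18 all 7 members were within 1.5-fold of HF, where 9.47% of all genes were higher and 12.5% lower. Acot11 was the member farthest from HF, with 549 scaled reads in HF.NOB against 702 in HF (log2 -0.35, -0.52 to -0.19). Acot7 had 460 against 458 scaled reads, Acot8 167 against 174, Acot9 630 against 583 and Acot13 1431 against 1579, HF.NOB first in each pair. Of these 4 only the interval of Acot13 left out 0 (log2 -0.14, -0.25 to -0.04).

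At ZT6, where the ratios of all genes followed transcript length, more members differed. Acot9 had 891 scaled reads in HF.NOB against 570 in HF (log2 0.64, 0.48 to 0.81) and Acot13 had 2344 against 1511 (log2 0.63, 0.53 to 0.73). Acot7 was just under the threshold, with 657 scaled reads in HF.NOB against 438 in HF (log2 0.58, 0.40 to 0.77). Acot11, by contrast, had 319 scaled reads in HF.NOB against 550 in HF (log2 -0.79, -1.01 to -0.57). Thus 2 members were higher and 1 was lower by at least 1.5-fold, in a comparison where 20.9% of all genes were higher and 22.4% were lower. Acot8 stayed at 172 scaled reads in HF.NOB against 158 in HF.

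Acot13 has the shortest transcript of the 7 (721 nt) and Acot11 the longest (5689 nt). Genes of similar length to Acot13 had a median log2 ratio of 0.81 in this pair of libraries, and those of similar length to Acot11 had -0.43. Once the median of genes of similar length was subtracted, 0 of the 7 members reached 1.5-fold, against 10.7% of genes higher and 21.0% lower. Acot13 changed sign to -0.17, Acot7 came to 0.08, Acot9 to 0.19, Acot2 to -0.33 and Acot8 to -0.50. Acot11 kept a lower value, -0.35 at ZT6, next to -0.38 at ZT18 where the length trend was flat, and Acot1 kept a higher one, 0.33 and 0.27. The median of the 7 members was 0.57 before and -0.17 after the subtraction. Cell type markers differed between these libraries too. The 7 white adipocyte markers summed to 6028 and 14036 scaled reads in HF.NOB at ZT18 and ZT6, against 8017 and 6425 in HF. The 7 red cell and neutrophil markers summed to 1722 and 14947 in HF.NOB, against 2110 and 1595 in HF. Their part in the Acot1 and Acot11 ratios was not tested.

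**Figure D3:**
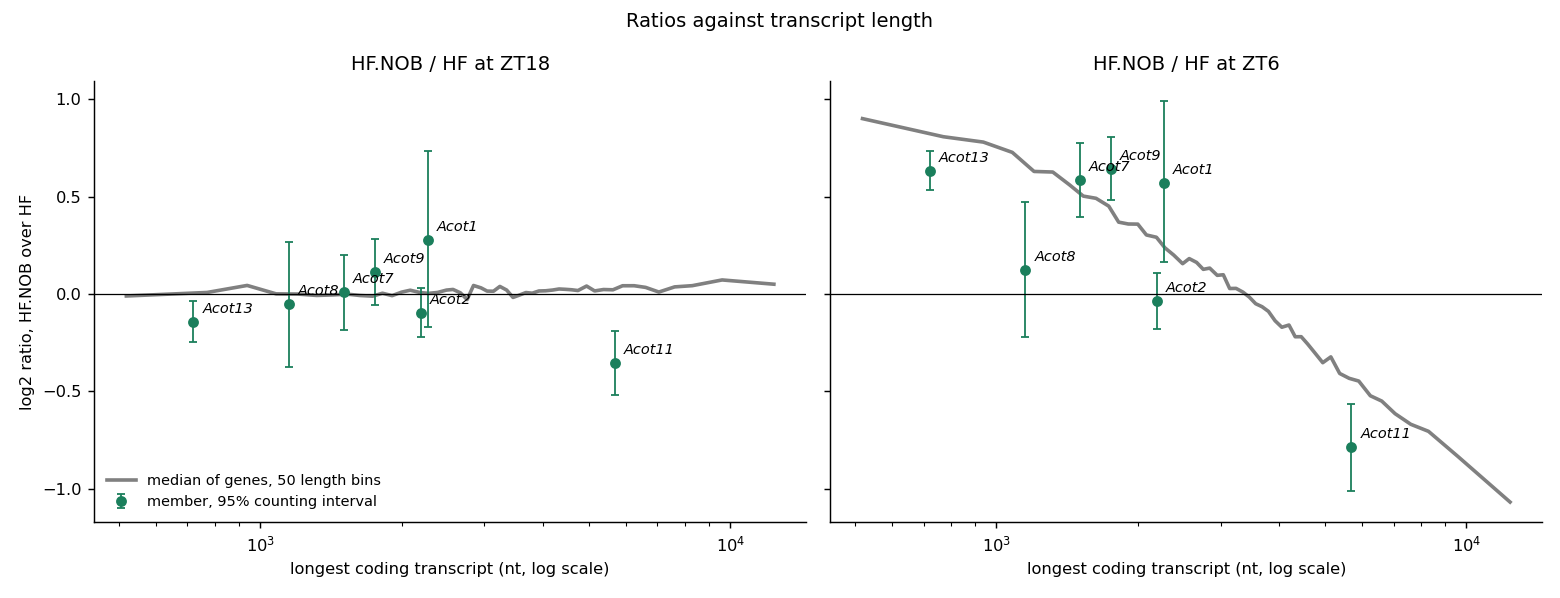
Log2 ratio of HF.NOB over HF (vertical axis) against the longest coding transcript in nt (log axis), at ZT18 on the left and ZT6 on the right, with points for the members, lines for their 95% counting intervals and a grey line for the median of all genes with a mean of at least 50 in 50 length bins. At ZT6 the grey line falls with length and crosses 0, with Acot13 (0.63) at its upper end and Acot11 (-0.79) towards its lower end, while at ZT18 it stays near 0.

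In the count model over the 4 HF.NOB and HF libraries 0 of the 7 members were called by edgeR, where 0.0749% of 14677 genes were higher and 0.157% were lower. Of the 7 members 1 had an unadjusted p below 0.05, Acot11 at log2 -0.59 (SE 0.30, adjusted p = 1.0), and DESeq2 called 0 as well. Over the 8 fits the Acot11 log2 ratio lay between -0.67 and -0.34 with an adjusted p between 0.37 and 1.0. 

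Relative to the regular diet, Acot1 and Acot2 were also higher in the HF.NOB libraries. At ZT18 Acot2 was 2.39-fold (log2 1.26, 1.09 to 1.43) and Acot1 2.10-fold (log2 1.07, 0.55 to 1.65) higher in HF.NOB than in RD, and at ZT6 Acot2 was 2.60-fold (log2 1.38, 1.18 to 1.59) and Acot1 6.37-fold (log2 2.67, 1.96 to 3.59) higher. With the length trend subtracted at ZT6 these were log2 1.07 for Acot2 and 2.42 for Acot1. Acot1 and Acot2 were the 2 members past 1.5-fold at ZT18, where 11.5% of genes were higher and 11.0% lower. At ZT6 3 were higher and 0 lower, against 21.8% and 23.0% of genes. The other was Acot13, at 1.59-fold before and log2 -0.08 after subtraction of the length trend. The 7 white adipocyte markers summed to 6028 and 14036 scaled reads in HF.NOB at ZT18 and ZT6, against 3966 and 4660 in RD. For the 7 red cell and neutrophil markers the sums were 1722 and 14947, against 4522 and 5518. Their part in these ratios was not tested.

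A count model over the HF.NOB and RD libraries, added after the data had been seen, called 2 of the 7 members higher and 0 lower, against 0.242% and 0.214% of 14488 genes. By edgeR's quasi-likelihood test Acot1 was higher by 1.81 on the log2 scale (SE 0.42, adjusted p = 0.0064) and Acot2 by 1.30 (SE 0.30, adjusted p = 0.0067). With all 6 libraries in the fit the adjusted p was 0.77 for both (log2 1.77 and 1.30), and with DESeq2 it was 0.17 for Acot2 and 1.0 for Acot1. Both comparisons with RD use the same RD libraries, so the HF.NOB values are not a second, separate observation of low RD levels.

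**Figure D4:**
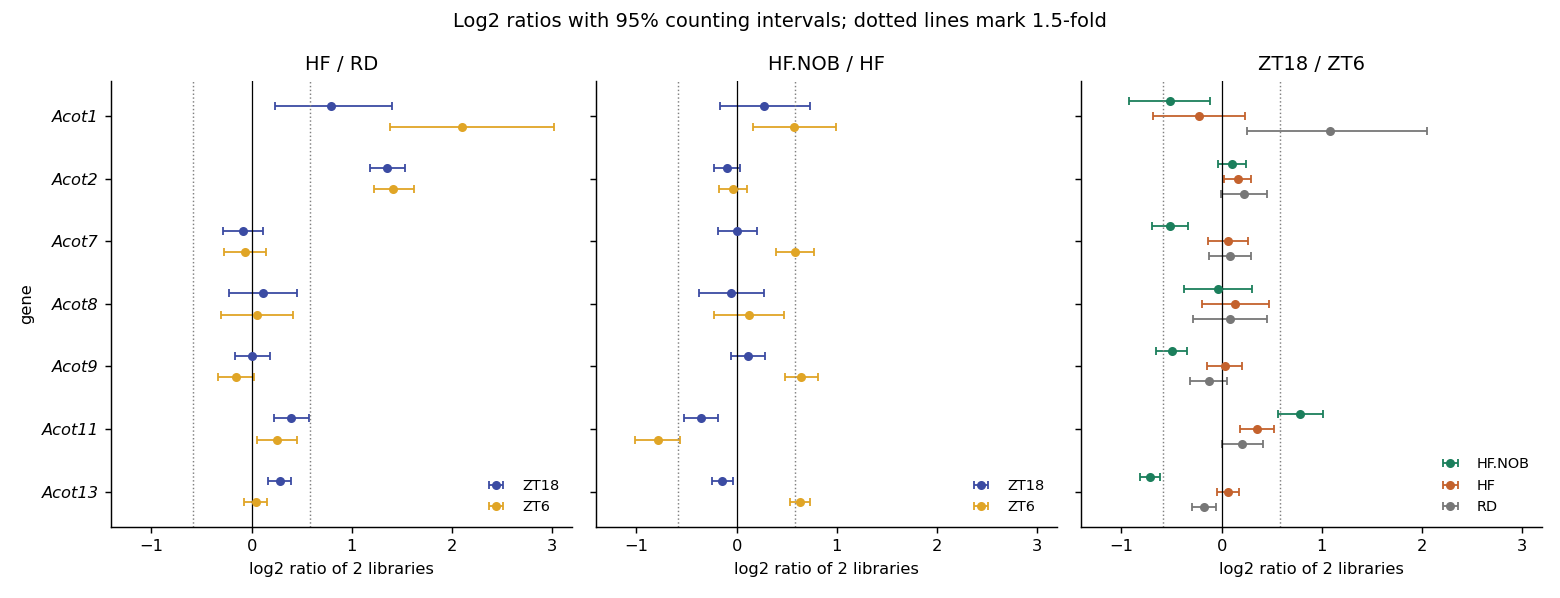
Log2 ratios of the 7 members for HF over RD, HF.NOB over HF and ZT18 over ZT6, 1 point per pair of libraries with its 95% counting interval, and dotted lines at 1.5-fold. Acot2 is past the upper line at both times for HF over RD (1.35 and 1.41) and near 0 for HF.NOB over HF (-0.10 and -0.04), and for ZT18 over ZT6 the Acot1 points lie at -0.52 in HF.NOB, -0.22 in HF and 1.08 in RD.

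Active and resting phase were compared within each diet. In RD, Acot1 had 46.4 scaled reads at ZT18 against 21.4 at ZT6 (log2 1.08, 0.25 to 2.05), from 41 and 16 reads, and was the 1 member past 1.5-fold, where 11.3% of genes were higher and 12.2% lower. In HF 0 members passed, where 12.2% of genes were higher and 10.2% lower. There Acot11 had 702 scaled reads at ZT18 against 550 at ZT6 (log2 0.35, 0.18 to 0.52), and Acot1 had 81.1 against 94.8 (log2 -0.22, -0.69 to 0.23). In HF.NOB 1 member was higher and 1 lower, where 23.4% of genes were higher and 21.4% lower.

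The HF.NOB pair again included the library with the length trend. Acot11 had 549 scaled reads at ZT18 against 319 at ZT6 (log2 0.78, 0.56 to 1.01) and Acot13 had 1431 against 2344 (log2 -0.71, -0.81 to -0.61). After the subtraction Acot11 was at 0.35, Acot13 at 0.13 and Acot8 at 0.60, the 1 member then past 1.5-fold, where 21.6% of genes were higher and 11.7% lower. Acot11 was higher at ZT18 than at ZT6 in all 3 diets, with log2 0.78 in HF.NOB, 0.35 in HF and 0.21 in RD. Acot2 was likewise a little higher at ZT18 in each, with log2 0.10, 0.16 and 0.22, but its intervals included 0 in HF.NOB and RD. In edgeR's fit over all 6 libraries 0 of the 7 members were called, beside 0% of 14597 genes higher and 0.00685% lower, and DESeq2 called 0. Acot11 had the 1 unadjusted p below 0.05 among the members (log2 0.47, SE 0.17, adjusted p = 0.83).

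Summed over the 7 members, the values were 4341, 4650 and 3525 scaled reads at ZT18 and 5464, 4284 and 3559 at ZT6, for HF.NOB, HF and RD in that order. Acot2 made up 23.2% of this sum in HF.NOB and 23.1% in HF at ZT18, against 11.9% in RD. At ZT6 its share was 17.2% in HF.NOB and 22.5% in HF, against 10.1% in RD. Acot13 held the largest share in every library, from 33.0% in HF.NOB at ZT18 to 42.9% in HF.NOB at ZT6.

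The rest of the Acot1 cluster on chromosome 12 was read for comparison. Acot6, a peroxisomal enzyme in mouse, had 215 and 209 scaled reads in HF at ZT18 and ZT6, against 165 and 124 in RD, and edgeR's fit over 4 libraries put it higher by 0.56 on the log2 scale (SE 0.16, adjusted p = 0.038). Its adjusted p was between 0.0061 and 1.0 over the 8 fits by edgeR or DESeq2. It was below 0.05 in 4 of them, in which HF and RD rest on the same 4 libraries. Acot4, also peroxisomal in mouse, had 11.3 and 25.0 scaled reads in HF, against 2.26 and 1.33 in RD, where the reads numbered 2 and 1. The HF over RD ratio of Acot4 was log2 1.91 at ZT18 (0.09 to 5.55) and 3.47 at ZT6 (1.61 to 9.58), and Acot4 was under the count filter of the 4-library fit. Acot3 and Acot5 had at most 1 read in any library. The summed values of Acot1 to Acot6 were 1383 and 1290 scaled reads in HF at ZT18 and ZT6, against 634 and 507 in RD. The log2 ratios were 1.12 (0.98 to 1.27) and 1.35 (1.18 to 1.52). The cluster as a whole was thus higher in HF however its reads were split, provided that each read was counted once, which is not known. Of the family outside the cluster, Acot10 had at most 1 read in any library. Acot12, a cytosolic acetyl-CoA hydrolase of liver, had 6.76 scaled reads in HF at ZT18 and 0 to 1.33 elsewhere. Them4 ranged from 150 to 215, Them6 from 260 to 419, Them5 from 0 to 4.99 and Baat from 0 to 5.63.

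Genes that work beside the thioesterases were counted in the same 4-library fit of HF over RD. Of all 14587 genes tested there, 5.05% rose and 4.14% fell. Of 22 genes of mitochondrial fatty acid use, 21 rose and 0 fell by edgeR's quasi-likelihood test, with a median log2 ratio of 0.63. The highest of them at ZT6 were Decr1 and Ech1, auxiliary enzymes for unsaturated fatty acids, with 5826 and 10951 scaled reads in HF, against 3462 and 6509 in RD. The lowest were Etfb, an electron transfer flavoprotein subunit that still rose (log2 0.28, adjusted p = 0.031), and Echs1, an enoyl-CoA hydratase and the 1 gene not called (log2 -0.11, adjusted p = 0.38). Of 12 tested PPAR targets of muscle other than the members, 10 rose and 1 fell, with a median of 1.12. Angptl4, an inhibitor of lipoprotein lipase, had 202 scaled reads in HF against 68.1 in RD at ZT6, and Fabp3, the muscle fatty acid binding protein, had 20024 against 7674. At the low end were Lpl, lipoprotein lipase (log2 0.14, adjusted p = 0.41), and the lipid droplet gene Plin4, the 1 that fell (log2 -0.30, adjusted p = 0.037). The Acot2 ratio (log2 1.39) and the Acot1 ratio (1.38) were thus above the median of both lists. The remaining members were below both medians: Acot11 at 0.34, Acot13 at 0.17, Acot8 at 0.09, Acot9 at -0.06 and Acot7 at -0.07. The median of the 7 members in this fit was therefore that of Acot13, 0.17.

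The steps nearest to the thioesterase reaction had lower medians than those lists in that fit, where 5.05% of all genes rose and 4.14% fell. The median of the 7 members themselves was 0.17. Of 13 tested acyl-CoA synthetase and transport genes 5 rose and 1 fell (median log2 0.17), of 11 genes of CoA synthesis and breakdown 4 rose and 0 fell (0.24), and of 16 peroxisomal genes 4 rose and 1 fell (0.16). Nudt7, a peroxisomal CoA diphosphatase, was the highest of the CoA genes at ZT6, with 666 scaled reads in HF against 384 in RD, followed by Dcakd, and Nudt19 and Ppcdc were the lowest and not called (log2 -0.21 and -0.30, adjusted p = 0.10 and 0.24). At the ends of the synthetase list, Acsf2 and Acsl5 rose (log2 0.60 and 0.50, adjusted p = 0.030 and 0.040), Acsl6 fell (log2 -0.34, adjusted p = 0.011) and Acsl3 was not called (log2 -0.22, adjusted p = 0.17). Of the peroxisomal genes, Hsd17b4 and Abcd3 rose (log2 0.53 and 0.45, adjusted p = 1.8e-04 and 6.1e-04), while Ehhadh and Acox2, the lowest at ZT6, were at log2 0.014 and 0.0092 in the fit (adjusted p = 0.97 and 0.99). Of 7 tested partners and regulators 1 rose, Dbi, the acyl-CoA binding protein, and 1 fell, Rxra. Pctp, the partner of Acot13, had 144 scaled reads in HF against 113 in RD at ZT6 (log2 0.34, -0.06 to 0.75). Ppard, the other low one, was at log2 -0.13 in the fit (adjusted p = 0.38). Of 16 clock genes 0 rose and 3 fell. Arntl fell (log2 -0.63, adjusted p = 0.0011), and Npas2, Bhlhe41 and Per3 were not called (log2 -0.88, 0.11 and 0.16, adjusted p = 0.18, 0.56 and 0.23). Each of these calls was absent from the fit with all 6 libraries, in which 0 genes were called.

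Likeness of profile was measured for each member as the root mean square difference of centred log2 values over the 6 libraries, with 11030 genes of mean 50 or more as candidates. It is a description over 6 libraries that share the length trend of one. Nearest to Acot2 were Dio2 (0.19), Slc5a3 (0.19) and the mitochondrial carrier Slc25a34 (0.21), and nearest to Acot1 were Hp (0.23), Fabp3-ps1 (0.32) and Cidea (0.32). Acot13 lay closest to Atp5f1 (0.025) and Atp5j (0.026), subunit genes of ATP synthase, and to Arpc1a (0.031), while Acot11 lay closest to Jcad (0.052), Sptan1 (0.054) and Zfp882 (0.059). Acot7 was nearest to Rhbdd3 (0.019), Babam1 (0.019) and Tmbim4 (0.023), Acot8 to Usp14 (0.020), Preb (0.022) and Tomm70a (0.026), and Acot9 to Bin1 (0.028), Atp1b3 (0.028) and B3gat3 (0.030). Without the HF.NOB library at ZT6, Hp remained nearest to Acot1 (0.23) and Acot2 came second (0.31), the neighbours of Acot2 became Fabp3-ps1 (0.14), Tmem45b (0.15) and Rab15 (0.18), and Acot13 was nearest to Cox6b1 (0.010), a subunit gene of cytochrome c oxidase.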

How the data were processed

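Reads from 6 libraries of frozen calf muscle (total RNA, Trizol) were aligned by the authors to mm10 with TopHat2 2.0.12, and Cufflinks 2.2.1 is named for quantification. The deposited signal values carry a single scaling factor in each library on top of read counts, since 100% of values were whole multiples of the library's lowest value within 0.001 of a read. Read length, strand setting and the source of counts and factors were not stated. In the HF library at ZT6, 1 read is worth 0.998, so scaled and unscaled values are nearly alike there and the step alone does not identify counts as it does in the others.

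Ratios were log2 of single libraries after a pseudocount of 1, for genes whose mean reached 1, called at 1.5-fold, with 95% Clopper-Pearson intervals on the reads. Length trends were medians in 50 bins of the longest protein-coding transcript (GENCODE M21) using genes whose mean reached 50. Recovered reads were tested with edgeR 4.0.16 (quasi-likelihood, TMM, genes with a mean of at least 10 reads, additive diet and time terms, Benjamini-Hochberg) and with DESeq2 1.42.0. These fits treat the other time or the other diets as repeats. Their p-values therefore set the diet or time effect against departures from additivity between single libraries, not against the spread between mice. On simulated counts for HF against RD, 94% of planted 2-fold and 100% of 4-fold changes were called, with 14 unchanged genes called, over 14585 genes. The simulation gave every gene the same dispersion and no effect of time. Changes were planted only in genes with a mean of at least 50 reads. It therefore cannot give the power or error rate of the fits to the real libraries, where the other time stands in as a repeat. Symbols were matched for 99.4% of 26294 genes. Named genes were all family genes, the 2 highest and 2 lowest ratios of each pathway list in HF over RD at ZT6 and the 3 nearest profiles of each member. The members, lists and tests, including the use of 4 libraries in the fit of HF over RD, were chosen with earlier results of these data known. The HF.NOB over RD fit, the length-trend fits, the lengths of each first-numbered transcript and the cluster sum were added later. R 4.3.3, Python 3.11.15, SciPy 1.17.1, pandas 2.3.3 and Biopython 1.88 were used.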

Additional observations from a re-analysis of the deposited data

Results flagged for a closer look

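Acot13 differed in direction between times: the log2 ratio of HF.NOB over HF was -0.14 at ZT18 and 0.63 at ZT6, and both counting intervals left out 0. The difference between the times was not tested, since each rests on 1 pair of libraries, and the ZT6 value was -0.17 after the median of genes of similar length was subtracted.

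Acot1 differed in direction between diets: the log2 ratio of ZT18 over ZT6 was -0.52 in HF.NOB and 1.08 in RD, and both counting intervals left out 0. This difference was not tested either, the RD value rests on 41 and 16 reads, and the HF.NOB value was -0.26 after the subtraction. The 7 white adipocyte markers summed to 6028 scaled reads in HF.NOB at ZT18 and to 14036 at ZT6, and their part was not tested.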

How the results depend on the processing

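Of 459 alternative values of single member ratios, 421 stayed within the counting interval's half-width, 33 moved by more and 5 changed sign; none of the other scalings or pseudocounts was among those 38. The sign changes were those of Acot13 with the length trend subtracted: for HF.NOB over HF at ZT6 to -0.17 (-0.091 with the lengths of first-numbered transcripts, an alternative chosen after seeing the data), for HF.NOB over RD at ZT6 to -0.078, and for ZT18 over ZT6 in HF.NOB to 0.13 (0.021 with first-numbered transcripts). The number of members past the threshold in HF.NOB over HF at ZT6 was 3, with TMM factors 1, with the length trend subtracted 0, with first-numbered transcripts 1 and at 2-fold 0. In ZT18 over ZT6 of HF.NOB it was 2, with the length trend subtracted 1 and at 2-fold 0, and in HF over RD at ZT18 it was 2, and 1 at 2-fold.

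Counts of genes called depended strongly on the fit, and the cause was not tested. Beside the first count of each comparison, only fits whose count moved by more than 1.5-fold are listed. For HF over RD the count of the fit without HF.NOB at ZT6, which holds the same 4 HF and RD libraries, did not move by that much. Its log2 ratios were 1.39 for Acot2, 1.37 for Acot1 and 0.34 for Acot11. HF over RD gave 1341 by edgeR, 271 by DESeq2, 31 without HF at ZT18, 1 with length-trend offsets and 0 with all 6 libraries. HF.NOB over HF gave 34, and 18 with the deposited factors, 0 by DESeq2, 72 without the filter, 98 without HF.NOB at ZT6, 61 without HF at ZT18, 0 with length-trend offsets and 0 with all 6. ZT18 over ZT6 gave 1, and 25 by DESeq2, 13 without the filter, 396 without HF.NOB at ZT6, 88 without HF at ZT18 and 398 with the 4 RD and HF libraries. HF.NOB over RD gave 66, and 26 with the deposited factors, 5 by DESeq2, 244 without HF.NOB at ZT6, 0 with length-trend offsets and 0 with all 6. Where a library is left out, the fit uses the other 5, all diets included, and the lone library of that diet is assumed to vary like the others.

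Among members without a call, the fitted sign changed for Acot13 in HF over RD without HF at ZT18 (-0.085). In HF.NOB over HF it changed without HF.NOB at ZT6 for Acot7 (-0.013), Acot8 (-0.054) and Acot13 (-0.099), and with length-trend offsets for Acot8 (-0.29) and Acot13 (-0.14). In ZT18 over ZT6 it changed for Acot1 with the deposited factors (-0.0066), for Acot7 without HF.NOB at ZT6 (0.085), in the 4 libraries (0.085) and with length-trend offsets (0.042), and for Acot13 with those offsets (0.021). In HF.NOB over RD it changed for Acot7 without HF.NOB at ZT6 (-0.084) and for Acot8 with length-trend offsets (-0.16).

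No paired analysis was possible because the labels give no replicate numbers that pair samples, beyond the time term with which the count models already compare diets within each time. Acot1, with 16 to 106 reads, is the member whose depth limits its ratios most.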
